A study of Mus musculus with 8 samples.

Results

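Protease inhibitors of the serpin, Kazal, Kunitz, WAP, cystatin, TIMP and alpha-macroglobulin families were followed in the mouse uterus with and without the forkhead transcription factor gene Foxa2. The members were taken by gene symbol: every gene named Serpin, or Spink, Spint, Wfdc, Cst or Timp followed by a number, together with A2m, Pzp and Slpi, and leaving out Spink1, Spink3, Wfdc3 and Serpinb9. This gave 95 of the 19938 genes measured with a probe set of a single symbol. They comprised 47 serpins (23 of them in clade B and 15 in clade A), 18 WAP genes including Slpi, 11 Spink, 8 Cst, 5 Spint and 4 Timp genes, and both A2m and Pzp.

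The 8 arrays held whole uteri of 4 control and 4 Foxa2-deleted female mice, with 1 array for each animal. Controls were Pgr+/+ Foxa2+/+ and the deleted animals PgrCre/+ Foxa2flox/flox, so that Cre was driven from the progesterone receptor locus, acted in cells that use this gene, and replaced 1 Pgr allele that the controls kept. Cre, the Pgr genotype and Foxa2 therefore cannot be told apart. All females, of an age the labels do not give, had mated with vasectomised wild type males and were killed on day 3.5 of pseudopregnancy, where the plug marked day 0.5. In bulk tissue, fewer cells of a type and less RNA per cell cannot be told apart either. Values are log2 intensities from RMA, a procedure that corrects background and scales arrays together. A gene was said to have risen or fallen where limma's p, adjusted over all genes by Benjamini and Hochberg, was under 0.05, and differences are deleted minus control.

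The targeted gene was lower in every library labelled as deleted, with Foxa2 at 8.61 to 8.82 in controls and 8.20 to 8.22 in deleted uteri, although no source used here says whether its probe set lies in the deleted part. Pgr, of which the deleted animals had 1 intact allele, lay at 11.15 to 11.27 and 11.35 to 11.81. Genes of the uterus, its muscle and its epithelium were well represented, with Esr1 at 11.84 or higher, Myh11 at 12.18 or higher and Krt8 at 11.42 or higher on every array. Array medians ran from 8.25 to 8.32. Deleted uteri varied more from animal to animal than controls: the SD was larger in the deleted group for 70.3% of all genes and for 57 of the 95 inhibitors.

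Protease inhibitors set how far and how long secreted and lysosomal proteases act. Serpins trap a serine protease by offering a reactive loop as bait and changing shape once it is cut, alpha-macroglobulins enclose proteases of any class in a cage, Kazal, Kunitz and WAP domains plug the active site, cystatins block cysteine cathepsins, and TIMPs block matrix metalloproteases. In the uterus such inhibitors are secreted into the lumen by the epithelium and are made by the stroma and by resident leukocytes.

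Of the 95 inhibitors 7 rose, 5 fell and 83 did not pass. Among all genes tested 11.1% passed, 4.50% as higher and 6.58% as lower, so the 12 inhibitors (12.6%) were close to the background share. The calls of all genes were split into 898 higher and 1311 lower, but into 1011 and 939 after quantile normalisation, 960 and 949 after cyclic loess, and 1082 and 982 with each array centred on its median. Under these scalings the inhibitors gave 7 and 5, 7 and 5, and 8 and 4. The median difference of the 95 was 0.06 on the log2 scale, against 0.01 for all genes, and in the 7 families or clades with 4 or more members it lay between -0.04 and 0.09. Most of the inhibitors were dim, with 61 of the 95 in the dimmest 25% of genes by mean intensity. The closeness to the background share depended on these dim genes. With the dimmest 25% left out, 9 of 34 inhibitors passed (26.5%, against 14.5% of the genes kept). With the dimmest 50% left out, 5 of 19 passed (26.3%, against 15.5%). The members were chosen with earlier results of these data known, so these shares are no test of an excess. The largest differences were those of A2m (8.85-fold higher), Spink12 (6.70-fold higher), Serpinb5 (2.72-fold higher) and Serpina3n (2.35-fold lower). With Wfdc2 they were the 5 members that passed at 1.5-fold or more, which was true of 3.28% of all genes. With Serpina9 and Wfdc1, which did not pass, 7 differed by 1.5-fold or more (4.61% of all genes). The 4 values of one genotype all lay above the 4 of the other for 17 inhibitors (17.9%), against 21.1% of all genes. The deleted uteri were the higher for 11 (9.55% of all genes) and the lower for 6 (11.6% of all genes). The number of inhibitors called was 4, 6 and 3 without control replicate 2, 3 or 4, with 2.79%, 3.10% and 2.79% of all genes called, and 16 without deleted uterus 2 (14.8% of all genes). A2m kept its call with each of the 8 arrays left out in turn, while each of the other 11 lost it without at least 1 array.

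**Figure D1:**
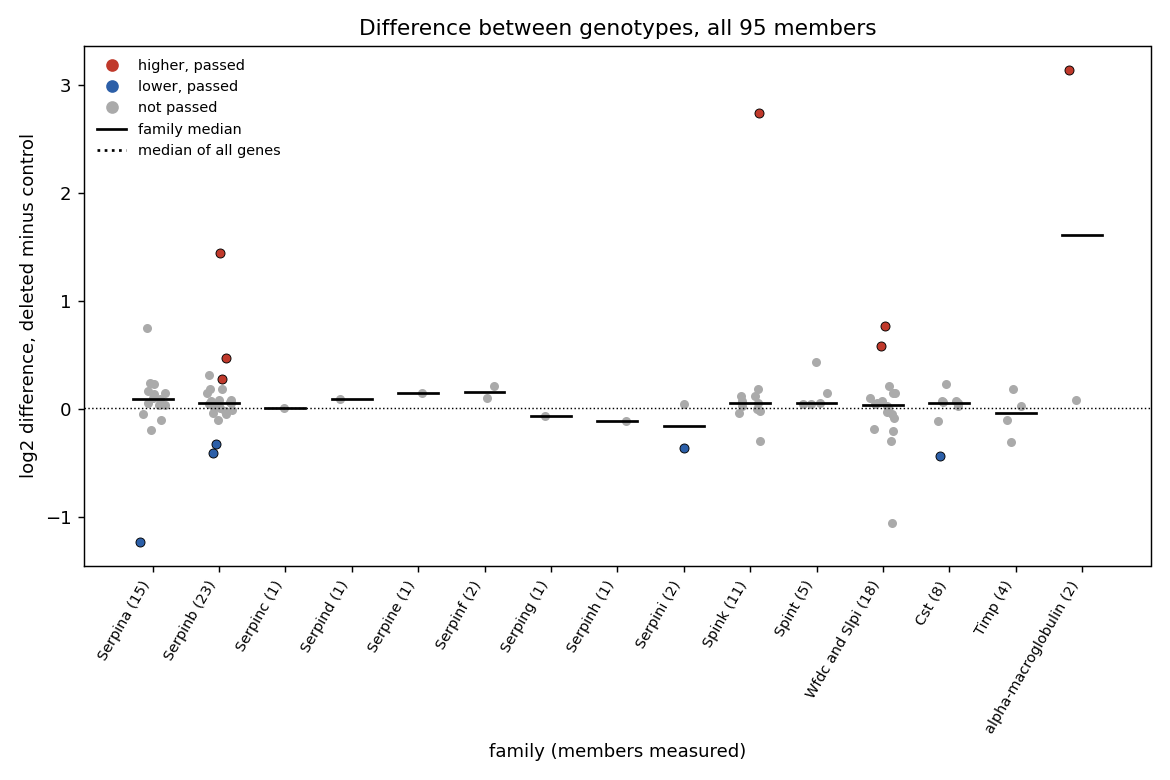
Log2 difference (deleted minus control, vertical axis) of each of the 95 inhibitor genes, 1 point per gene, grouped by family on the horizontal axis with the number of members measured. Most of the 95 points lie near 0, and single genes stand far out: A2m at 3.15, Spink12 at 2.75, Serpinb5 at 1.44 and Serpina3n at -1.24.

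**Figure D2:**
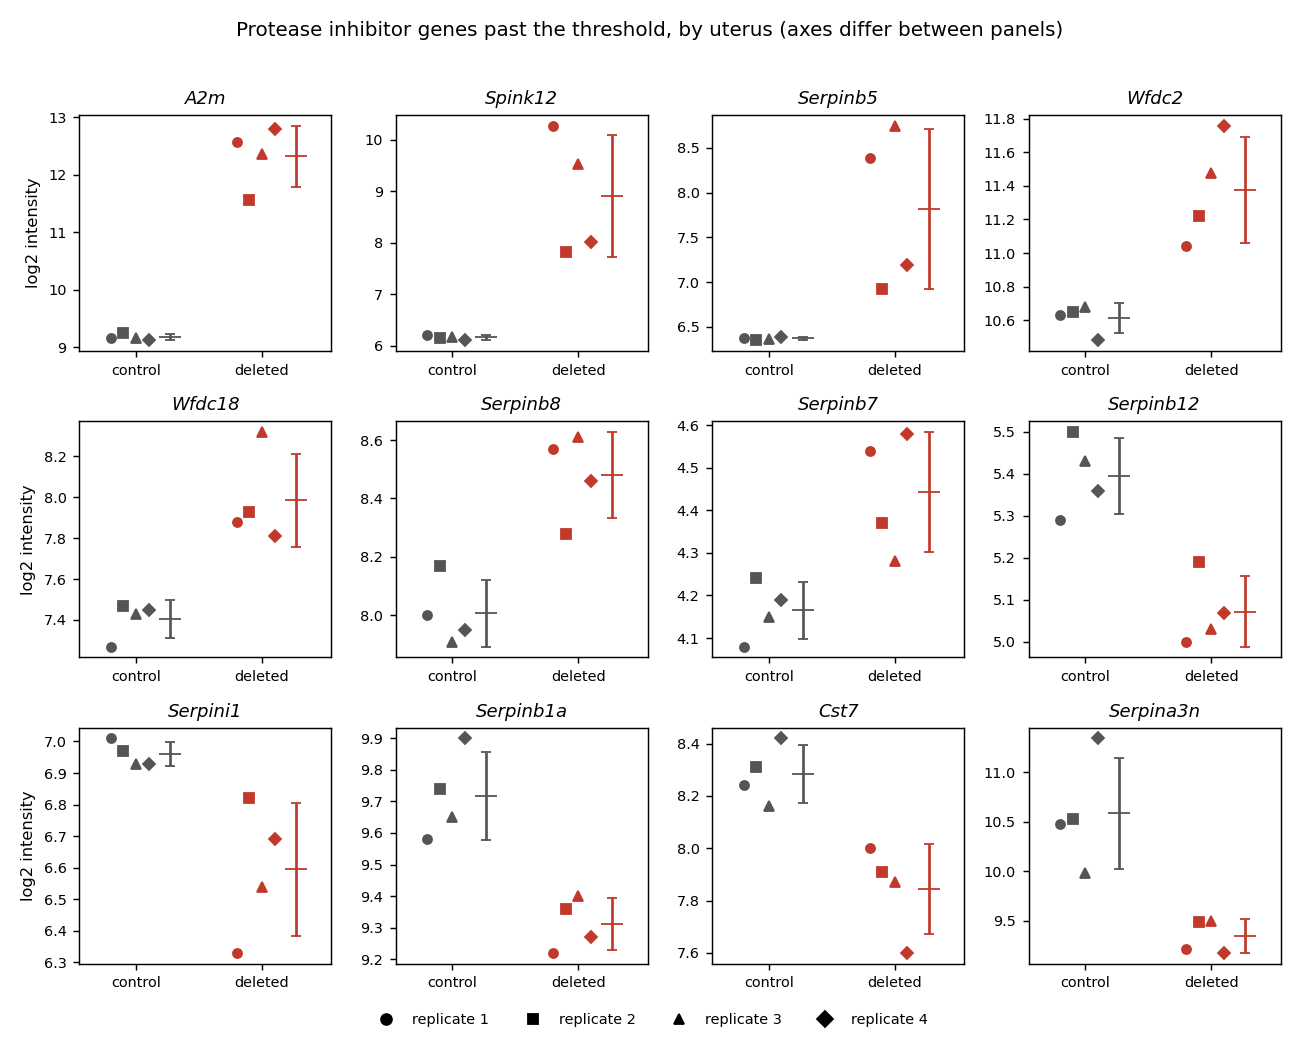
Log2 intensity of the 12 inhibitors that passed, in each of 4 control and 4 deleted uteri (1 point per uterus, symbol by replicate; bar, mean ± SD), ordered from the largest rise to the largest fall. The genotypes do not overlap in any panel, and the deleted uteri are widely spread for Spink12 (7.82 to 10.28) and Serpinb5 (6.92 to 8.75).

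The 4 inhibitors that passed at 2-fold or more were A2m, Spink12, Serpinb5 and Serpina3n. Of these, Serpina3n, which fell, and Serpinb5, which rose, have an entry in the RefSeq promoter table used here (assembly GRCm38.p6), and the 250 bases before the start of each (plus strand) are shown to set the regions beside each other. They lie at chr12:104406458-104406707 and chr1:106860925-106861174 and are given 5′ to 3′.
Serpina3n: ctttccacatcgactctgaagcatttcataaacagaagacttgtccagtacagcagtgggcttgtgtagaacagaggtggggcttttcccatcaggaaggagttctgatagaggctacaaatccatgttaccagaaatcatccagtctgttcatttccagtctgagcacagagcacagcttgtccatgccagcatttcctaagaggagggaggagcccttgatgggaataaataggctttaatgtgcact
Serpinb5: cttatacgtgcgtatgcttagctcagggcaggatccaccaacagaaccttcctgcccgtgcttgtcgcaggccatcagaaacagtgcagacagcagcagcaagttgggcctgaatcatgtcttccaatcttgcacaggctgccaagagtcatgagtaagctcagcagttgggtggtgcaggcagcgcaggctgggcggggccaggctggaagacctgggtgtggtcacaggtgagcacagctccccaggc
No match to TGTTTAC or TGTTTGC (forkhead), the palindromic estrogen response element or TTCNNNGAA (STAT), read on both strands, was found in either sequence or in the 50 bases after the start, so no letters are in capitals. Of 32851 promoters of the same 300 bases in RefSeq, 3.65%, 5.07%, 0.07% and 8.3% held these motifs in that order. Of the 71 inhibitors with a listed promoter, 0, 8, 0 and 6 held them, and none of the 9 that passed did. Inhibitors were counted by gene, with a match in any listed promoter, and the background by promoter, so the shares are not directly comparable. A motif outside this window would not be seen.

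The alpha-macroglobulin gene A2m, whose protein cages proteases of several classes, lay at 9.15, 9.25, 9.16 and 9.13 in control replicates 1 to 4 and at 12.56, 11.56, 12.36 and 12.79 in the deleted uteri. Every deleted uterus was more than 2 units above every control, and replicate 2 was the lowest of the deleted. The gene rose by 3.15 (SE 0.22, 95% interval 2.64 to 3.65, adjusted p = 3.5e-04, limma). Its family partner Pzp, the pregnancy zone protein gene, had a difference of 0.09 (SE 0.06, 95% interval -0.05 to 0.22, adjusted p = 0.343, limma), and its groups overlapped.

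Of the 15 clade A serpins, secreted proteins that include antitrypsin and antichymotrypsin relatives, 1 fell, none rose (4 were higher at an unadjusted p under 0.05) and 14 did not pass. Serpina3n, an antichymotrypsin relative that inhibits granzyme B and cathepsin G, lay at 10.48, 10.53, 9.98 and 11.34 in controls and at 9.22, 9.49, 9.50 and 9.18 in deleted uteri. Controls were spread over more than 1 unit and the deleted uteri lay close together below them. Serpina3n fell by 1.24 (SE 0.24, adjusted p = 0.0194) and no longer passed without control replicate 2 (adjusted p = 0.0604) or deleted uterus 1 (adjusted p = 0.05004). It belongs to a cluster of closely related copies, so how far its probes are specific is unknown. Serpina9, the centerin gene of germinal centre B cells, had 6.68, 6.58, 6.43 and 6.59 in controls and 7.57, 6.86, 7.95 and 6.92 in deleted uteri. All 4 deleted values were above all controls, those of replicates 1 and 3 by the most, but the difference of 0.76 (SE 0.22) missed the threshold (adjusted p = 0.0619). It passed without deleted uterus 2 (adjusted p = 0.0255) or 4 (adjusted p = 0.0374) and with arrays weighted by their quality (adjusted p = 0.0255). The other 13 clade A genes that did not pass had differences from -0.19 to 0.24.

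Serpins of clades C to H, among them inhibitors of clotting, plasmin and complement, had 7 members and none passed (2 were higher and 0 lower at an unadjusted p under 0.05). Serpinf1, which encodes the anti-angiogenic factor PEDF and does not inhibit proteases, lay at 11.39 to 11.54 in controls and 11.53 to 11.80 in deleted uteri, a difference of 0.22 (SE 0.07, adjusted p = 0.0734). It passed without deleted uterus 3 (adjusted p = 0.0319) and with weighted arrays (adjusted p = 0.0360). Serpinf2, the antiplasmin gene, differed by 0.10 and Serpine3 by 0.15. The antithrombin gene Serpinc1, the heparin cofactor gene Serpind1, the C1 inhibitor gene Serping1 and the collagen chaperone gene Serpinh1 differed by 0.01, 0.10, -0.07 and -0.11, with 95% intervals that all lay between -0.32 and 0.22. The sign of Serpinc1 turned under cyclic loess scaling (-0.01). In clade I, Serpini1, the neuroserpin gene whose product inhibits tissue plasminogen activator, lay at 7.01, 6.97, 6.93 and 6.93 in controls and at 6.33, 6.82, 6.54 and 6.69 in deleted uteri. Controls lay close together and all deleted uteri were lower, with replicate 2 the nearest to them. Serpini1 fell by 0.37 (SE 0.10, adjusted p = 0.0433). This call was lost without any 1 control, deleted uterus 1 or 3 (highest adjusted p = 0.111) and with arrays centred on their median (adjusted p = 0.0516). Serpini2 differed by 0.05 (adjusted p = 0.572).

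Clade B holds the intracellular serpins, and 3 of its 23 measured genes rose, 2 fell and 18 did not pass. Serpinb5, the gene of maspin, an epithelial serpin that does not inhibit proteases, lay at 6.38, 6.35, 6.36 and 6.39 in controls and at 8.39, 6.92, 8.75 and 7.19 in deleted uteri. The controls were nearly identical, and deleted replicates 1 and 3 stood well above replicates 2 and 4. Serpinb5 rose by 1.44 (SE 0.37, 95% interval 0.60 to 2.28, adjusted p = 0.0410) and no longer passed without any 1 control, deleted uterus 1 or 3 (highest adjusted p = 0.105). Serpinb8, whose product inhibits furin and trypsin-like proteases, lay at 8.0, 8.17, 7.91 and 7.95 in controls and at 8.57, 8.28, 8.61 and 8.46 in deleted uteri. It rose by 0.47 (SE 0.09, adjusted p = 0.0148) and no longer passed without control replicate 3 or 4 (highest adjusted p = 0.0525). Serpinb7, the megsin gene, was among the dimmest signals, at 4.08, 4.24, 4.15 and 4.19 in controls and 4.54, 4.37, 4.28 and 4.58 in deleted uteri. Its rise of 0.28 (SE 0.07, adjusted p = 0.0464) was lost without any 1 control, deleted uterus 1 or 4 (highest adjusted p = 0.116).

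Serpinb1a, whose product inhibits the neutrophil proteases elastase, proteinase 3 and cathepsin G, lay at 9.58, 9.74, 9.65 and 9.90 in controls and at 9.22, 9.36, 9.40 and 9.27 in deleted uteri. All deleted uteri were lower, by less than in Serpina3n. Serpinb1a fell by 0.41 (SE 0.08, adjusted p = 0.0163) and no longer passed without control replicate 2 (adjusted p = 0.0567). Its paralogs Serpinb1b and Serpinb1c differed by -0.04 and 0.03 and did not pass. Serpinb12, an inhibitor of trypsin-like proteases, was dim, at 5.29, 5.5, 5.43 and 5.36 in controls and 5.0, 5.19, 5.03 and 5.07 in deleted uteri. Serpinb12 fell by 0.32 (SE 0.06, adjusted p = 0.0181) and no longer passed without control replicate 2, 3 or 4 (highest adjusted p = 0.0603). Without detection calls it is unknown whether Serpinb7 and Serpinb12 lie above background. The 18 other clade B genes had differences from -0.11 to 0.31, and 0 of them passed at an unadjusted p under 0.05. In gene order 11 of the clade B genes measured lie in a run from Serpinb5 to Serpinb8 with no more than 5 other coding genes between neighbours (RefSeq, GRCm38.p6). This run held Serpinb5, Serpinb12, Serpinb7 and Serpinb8, of which 3 rose and 1 fell, and the 7 between or beside them did not pass. A second run of 12, from Serpinb1a to Serpinb6a, held Serpinb1a as its single call.

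Among the 11 Kazal-type Spink genes, small inhibitors of trypsin-like proteases, 1 rose, none fell (0 at an unadjusted p under 0.05) and 10 did not pass. Spink12 lay at 6.21, 6.16, 6.18 and 6.11 in controls and at 10.28, 7.82, 9.53 and 8.01 in deleted uteri. The controls were tightly grouped, all deleted uteri were above them by more than 1.5 units, and replicates 1 and 3 were again the highest. Spink12 rose by 2.75 (SE 0.49, 95% interval 1.63 to 3.86, adjusted p = 0.0147) and no longer passed without control replicate 2 (adjusted p = 0.0501) or 4 (adjusted p = 0.0501). Its neighbours in gene order Spink5, Spink14, Spink6 and Spink11 differed by 0.03, 0.19, -0.04 and 0.12. None of these passed, although Spink14 (adjusted p = 0.0711) passed without deleted uterus 4 (adjusted p = 0.0411).

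The Kunitz-type Spint genes gave 0 of 5 calls (limma, and 1 higher at an unadjusted p under 0.05). Spint2, whose product is an inhibitor of matriptase and hepatocyte growth factor activator on epithelial membranes, lay at 10.01, 9.92, 10.09 and 10 in controls and at 10.34, 10.11, 10.92 and 10.41 in deleted uteri. All deleted values were above all controls, narrowly for replicate 2, and the difference of 0.44 (SE 0.15, 95% interval 0.10 to 0.78) did not pass (adjusted p = 0.0850). It passed without deleted uterus 2 (adjusted p = 0.0295). Spint1, which encodes the other matriptase inhibitor, differed by 0.15 (95% interval -0.17 to 0.48, adjusted p = 0.484). Spint5 differed by 0.06, and all 5 differences were above 0.

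The WAP genes, small secreted proteins with a four-disulfide core, had 2 of 18 higher, none lower (2 were lower at an unadjusted p under 0.05) and 16 that did not pass. Wfdc2, the HE4 gene of reproductive tract and airway epithelium, lay at 10.63, 10.65, 10.68 and 10.48 in controls and at 11.04, 11.22, 11.48 and 11.76 in deleted uteri. It rose by 0.77 (SE 0.14, adjusted p = 0.0152, 1.70-fold) and no longer passed without control replicate 4 (adjusted p = 0.0529). Wfdc18 lay at 7.27, 7.47, 7.43 and 7.45 in controls and at 7.88, 7.93, 8.32 and 7.81 in deleted uteri. In both genes the genotypes were separate, but the deleted uterus nearest the controls was replicate 1 for Wfdc2 and replicate 4 for Wfdc18. Wfdc18 rose by 0.58 (SE 0.11, adjusted p = 0.0161) and no longer passed without control replicate 3 or 4 (highest adjusted p = 0.0507).

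Wfdc1, the gene of the stromal growth inhibitor ps20, had the largest decrease of this family and missed the threshold. Its controls lay at 11.24, 11.24, 11.25 and 11.20 and its deleted uteri at 9.77, 11.04, 9.45 and 10.46. Every deleted uterus was lower, but relative to the control mean replicate 2 stood at -0.19 and replicates 1 and 3 at -1.46 and -1.78. The difference was -1.05 (SE 0.30, 95% interval -1.72 to -0.38, adjusted p = 0.0532), and it passed without deleted uterus 2 (adjusted p = 0.0050). It also passed with weighted arrays (adjusted p = 0.0246) and when the dimmest 25% or 50% of genes were left out (adjusted p = 0.0497 and 0.0494). Slpi, the secretory leukocyte protease inhibitor gene, differed by 0.22 (95% interval -0.06 to 0.49, adjusted p = 0.250), with 8.25 to 8.45 in controls and 8.33 to 8.88 in deleted uteri. Its groups overlapped. The 15 genes of the family that did not pass, other than Wfdc1, had differences from -0.29 to 0.22.

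Among 8 cystatin genes 1 fell, none rose (1 was higher at an unadjusted p under 0.05) and 7 did not pass. Cst7, the gene of cystatin F, which controls cathepsin C and granzyme maturation in cytotoxic lymphocytes, lay at 8.24, 8.31, 8.16 and 8.42 in controls and at 8.0, 7.91, 7.87 and 7.60 in deleted uteri. Cst7 fell by 0.44 (SE 0.09, adjusted p = 0.0230), with every deleted uterus below every control. It no longer passed without control 1, 2 or 4 (highest adjusted p = 0.0730). Cst3, the cystatin C gene, kept between 12.33 and 12.67 on all arrays, with a difference of -0.11 (95% interval -0.28 to 0.06). Cst9 differed by 0.24 (adjusted p = 0.0740), and passed without control replicate 1 (adjusted p = 0.0253).

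None of the 4 Timp genes passed (limma; 0 at an unadjusted p under 0.05). Timp1 lay at 9.67, 9.71, 9.50 and 10.02 in controls and at 9.44, 9.42, 9.73 and 9.08 in deleted uteri. Its groups overlapped through deleted replicate 3, and the difference was -0.31 (SE 0.15, 95% interval -0.64 to 0.02, adjusted p = 0.184). Timp3, which is bound to the matrix, lay at 11.39 to 11.53 in controls and 11.12 to 11.50 in deleted uteri and differed by -0.10 (95% interval -0.29 to 0.08). Of the other two, Timp2 differed by 0.03 (95% interval -0.21 to 0.26) and Timp4 by 0.18 (95% interval -0.20 to 0.56).

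The deleted uteri did not keep the same order from gene to gene. Replicate 2 was the nearest to the control mean for 6 of the 12 inhibitors that passed, replicate 3 for 3, replicate 1 for 2 and replicate 4 for 1. Replicates 1 and 3 were the farthest for 5 of the 12, namely Spink12, Serpinb5, Serpinb8, Serpinb12 and Serpini1, and also for Serpina9 and Wfdc1, which missed the threshold. Relative to the control mean, Spink12 was higher by 4.12 and 3.37 on replicates 1 and 3 and by 1.66 and 1.85 on replicates 2 and 4. For Serpinb5 these values were 2.02 and 2.38 against 0.55 and 0.82. Replicates 1 and 4 were the farthest for A2m, Serpina3n, Serpinb1a and Serpinb7. With 4 animals this is a description and no relation between genes was tested.

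**Figure D3:**
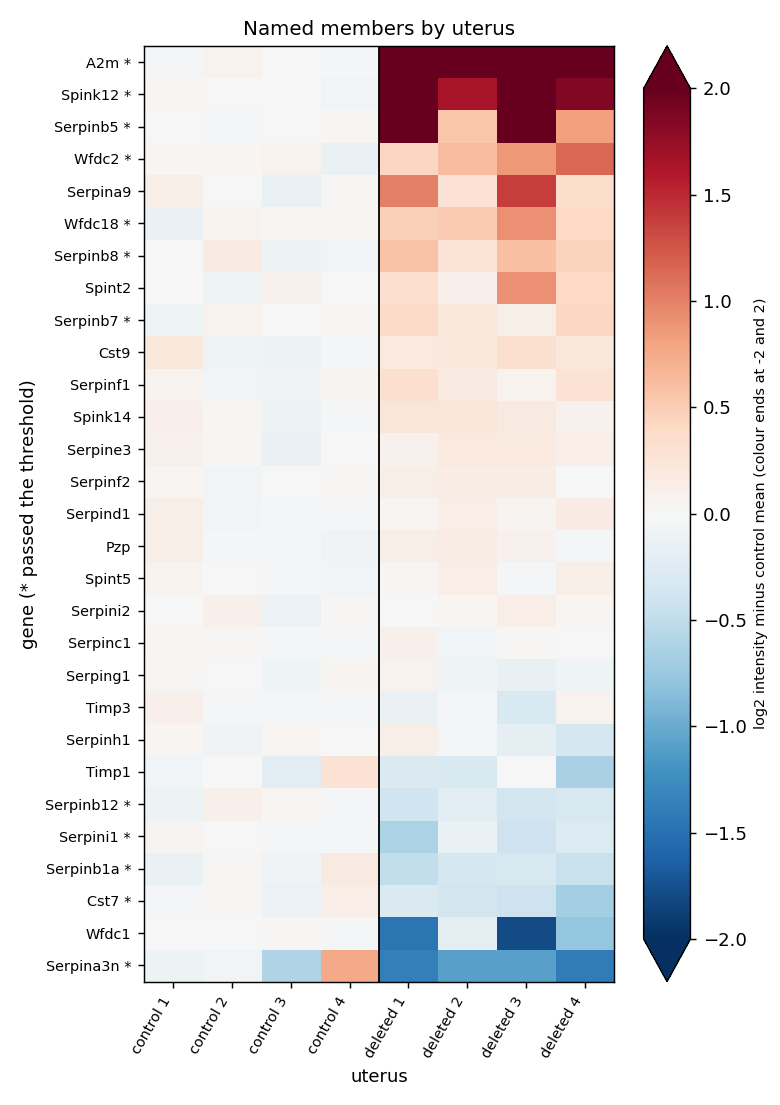
Colour gives the log2 intensity minus the control mean for each named inhibitor (rows, from the largest rise to the largest fall; an asterisk marks those that passed) in each of 8 uteri (columns). The deleted uteri of replicates 1 and 3 are the most intense for Spink12, Serpinb5, Serpina9 and Wfdc1, while A2m is beyond the colour range in all 4.

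Proteases of the classes that these families inhibit were followed in 5 lists, of which the list of plasminogen activation and coagulation also holds receptors, cofactors and the inhibitors Tfpi and Tfpi2. Of the 88 different genes 13 rose, 10 fell and 65 did not pass. This is 26.1%, against the 11.1% of all genes. The lists were chosen with earlier results of these data known, so their share called is no test of an excess among proteases. The share of all genes also depended on brightness, and was 14.5% of the genes kept when the dimmest 25% were left out. Of 19 genes listed as trypsin-like epithelial serine proteases, only some of them targets of Spink and Spint proteins, 8 rose and 2 fell (median difference 0.42). Tmprss11d, an airway and mucosal membrane protease, rose by 2.77 (SE 0.43, adjusted p = 0.0096), Htra1 by 0.92 (SE 0.15, adjusted p = 0.0110) and St14, the matriptase gene, by 1.13 (SE 0.22, adjusted p = 0.0178), while Tmprss11a fell by 0.59 (SE 0.12, adjusted p = 0.0208). St14 lost its call without control replicate 2, 3 or 4 (highest adjusted p = 0.0605) and Tmprss11a without control replicate 2 (adjusted p = 0.0595). St14 lay at 9.86 to 10.04 in controls and 10.49 to 11.75 in deleted uteri, beside the smaller differences of its inhibitors Spint2 and Spint1 given above. Whether the inhibitors and their targets differ in their change was not tested.

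Of 15 leukocyte granule serine proteases 1 rose and 3 fell (median -0.10). Gzmb, the granzyme B gene, fell by 1.85 (SE 0.32, adjusted p = 0.0128) and Gzma by 0.67 (SE 0.15, adjusted p = 0.0269). Gzmc fell by 1.13 (SE 0.30, adjusted p = 0.0469) and Ctsg, the cathepsin G gene, rose by 0.31 (SE 0.06, adjusted p = 0.0197). Gzma lost its call without control replicate 4 or deleted uterus 1 (highest adjusted p = 0.0840), Ctsg without control replicate 2, 3 or 4 (highest 0.0670), and Gzmc without any 1 array other than deleted uterus 2 (highest 0.120), as well as after quantile normalisation (0.0511), median centring (0.0505) and a robust fit with a trend (0.0542). Gzmb, a target of Serpina3n, lay at 9.73, 9.97, 9.90 and 10.54 in controls and at 8.49, 9.01, 7.56 and 7.70 in deleted uteri. As for Serpina3n, all deleted values lay below all controls.

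A list of 17 cathepsins, legumain, calpains and caspases had 2 that rose and 2 that fell (median -0.01). Cystatins of the Cst type block the cysteine cathepsins and legumain, while the calpains, the caspases and Ctsa, a serine carboxypeptidase, are not their targets. Ctso fell by 0.58 (SE 0.08, adjusted p = 0.0051) and Lgmn, the legumain gene, by 0.39 (SE 0.11, adjusted p = 0.0483), while the calpain gene Capn5 rose by 1.14 (SE 0.25, adjusted p = 0.0244) and Ctsl, the cathepsin L gene, by 0.55 (SE 0.14, adjusted p = 0.0429). Of 19 matrix metalloproteases and their relatives, not all of them targets of TIMPs, 2 rose and 2 fell (median -0.01). Mmp7, the matrilysin gene of epithelia, rose by 1.43 (SE 0.31, adjusted p = 0.0256) and Mmp11 by 0.62 (SE 0.16, adjusted p = 0.0404), while Adamts9 fell by 0.54 (SE 0.11, adjusted p = 0.0215) and Mmp3 by 0.57 (SE 0.16, adjusted p = 0.0492). Of 18 genes of plasminogen activation and coagulation 1 fell, the thrombin receptor gene F2r (by 1.33, SE 0.28, adjusted p = 0.0223), and none rose (limma). At an unadjusted p under 0.05, 3 were higher and 5, F2r among them, were lower. The inhibitor genes Tfpi and Tfpi2 were among those lower, with differences of -0.445 and -0.245 that did not pass (adjusted p = 0.0867 and 0.141). Plau and Plat, the genes of the plasminogen activators, were higher in all 4 deleted uteri than in all controls, as were 9.55% of all genes. Their differences of 1.05 (SE 0.30, adjusted p = 0.0571) and 0.59 (SE 0.24, adjusted p = 0.132) did not pass.

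Among the named genes of these 5 lists Ctso, Htra1, Tmprss11d and Gzmb kept their calls with each array left out in turn. Mmp7 lost its call without any 1 control (highest adjusted p = 0.0786). Adamts9 lost it without control replicate 2, 3 or 4 (highest 0.0703). F2r and Capn5 lost it without any 1 control or deleted uterus 1 (highest 0.0707 and 0.0766). Ctsl lost it without any 1 control, deleted uterus 1 or 3 (highest 0.118), and Mmp3 without any 1 control, deleted uterus 1 or 4 (highest 0.130). Mmp11 kept it without deleted uterus 2 alone (otherwise as high as 0.109) and Lgmn without deleted uterus 3 alone (otherwise as high as 0.119). Lgmn also lost it under median centring and cyclic loess (highest 0.0662), and Mmp3 under each of these, quantile normalisation and a robust fit with a trend (highest 0.0554).

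Markers of several cell types moved as well, but which cells of these uteri carry the inhibitors was not measured. Of 12 epithelium markers 6 rose and none fell (limma; 1 was lower at an unadjusted p under 0.05), and their mean log2 intensity lay at 9.97 to 10.18 in controls and 10.54 to 11.50 in deleted uteri, with replicate 3 the highest. Of the inhibitors described above as epithelial, Wfdc2 and Serpinb5 rose and Spint2 did not pass (limma, adjusted p = 0.0850). Spint1, which like Spint2 inhibits matriptase, and Slpi did not pass either (adjusted p = 0.484 and 0.250). Of 12 NK and T cell markers 8 fell and none rose (limma; 1 was higher at an unadjusted p under 0.05). The list means were 8.41 to 8.57 in controls and 7.75 to 8.06 in deleted uteri, beside the fall of Cst7. The T cell genes of this list, Cd3e, Cd3g, Cd8a and Cd4, did not pass and differed by 0.17, -0.08, 0.155 and 0.19. Of 10 neutrophil markers 2 rose, with list means of 7.27 to 7.43 in controls and 7.82 to 8.68 in deleted uteri, beside the fall of Serpinb1a. Of 10 endothelium markers 8 fell (list means 10.57 to 10.69 in controls and 9.60 to 10.26 in deleted uteri), and of the 9 endometrial gland markers other than Foxa2, the gene deleted by design, 3 fell (8.76 to 9.13 and 7.78 to 8.12). Macrophage, mast cell and smooth muscle lists had 1 higher, 1 lower and 1 higher gene. Of 7 liver markers 2 fell, of which Ttr is 1 of the 3 gland markers that fell, and the other 5 had differences from 0.03 to 0.15. Without Ttr the liver list means overlapped, at 7.46 to 7.57 in controls and 7.48 to 7.58 in deleted uteri. The stroma list and the list of mesothelium, fat and oviduct had 0 calls (limma; 2 and 1 at an unadjusted p under 0.05). RMA values have no true 0, so no marker can be said to be absent. The part of these cell types in the inhibitor results was not tested.

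**Figure D4:**
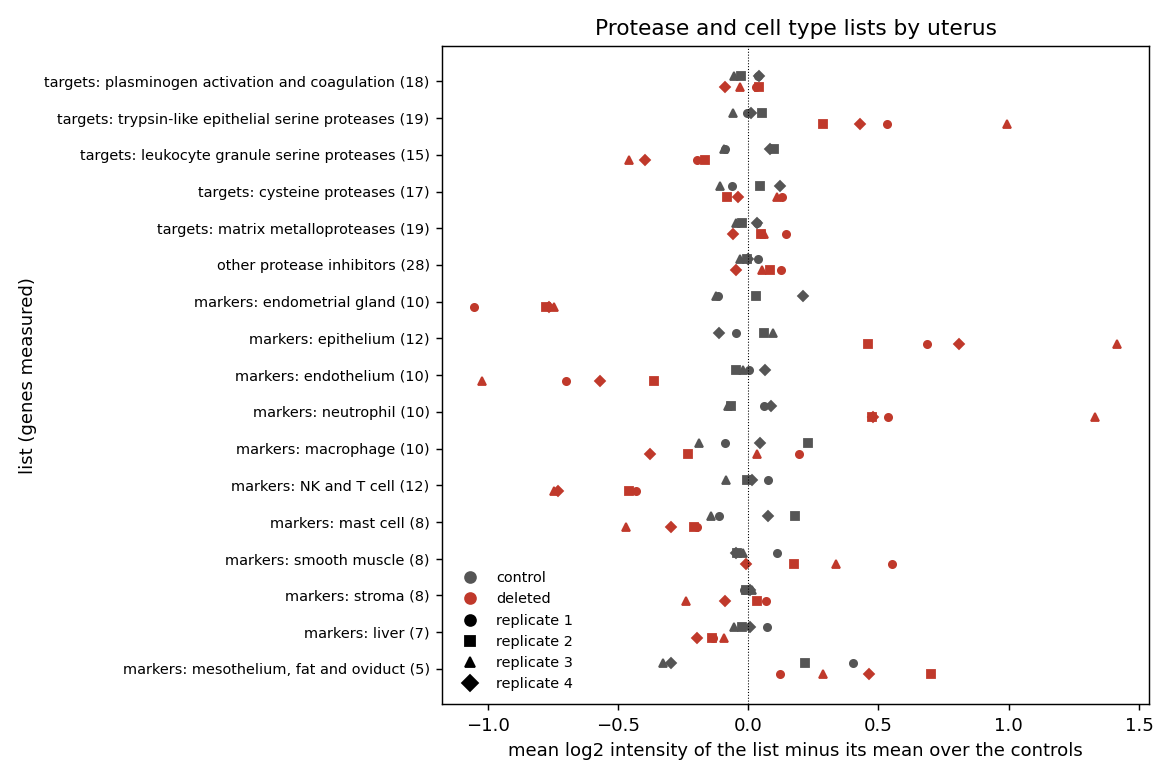
Mean log2 intensity of each protease or cell type list minus its mean over the 4 controls (horizontal axis), with 1 point per uterus, in grey for controls and red for deleted uteri. The epithelium, neutrophil and trypsin-like protease lists lie to the right of all controls in all 4 deleted uteri, and the gland, endothelium, NK and T cell, mast cell, liver and leukocyte protease lists to the left. The gland list as drawn includes Foxa2 itself, and the liver list lies to the left through Ttr, which both lists hold.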

How the data were processed

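Total RNA (150 ng) of each uterus was hybridised to 1 Affymetrix gene array. The authors deposited log2 intensities for 35556 probe sets. RMA and limma are named in the submitters' processing notes, and no source used here gives the genome build behind the probe sets. Of the probe sets, 21789 carried 1 gene symbol in the platform annotation, 1621 several and 12146 none, and each gene was represented by its brightest probe set on average, giving 19938 genes. The number of arrays limits the precision.

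Differences were tested with limma 3.58.1 (lmFit and eBayes, R 4.3.3) without covariates over all genes, with Benjamini-Hochberg adjustment. In a simulation of this comparison on 19938 genes, the fit called 85% of genes changed 1.5-fold and 98% of those changed 2-fold. Each simulated gene had the same SD in both groups, whereas in the data the SD was larger in deleted uteri for 70.3% of genes. These shares therefore need not hold for the data. Members and lists were chosen with earlier results of these data known. Named were all members that passed, other members at 1.5-fold or more, the 2 members of lowest p in each family with fewer, and up to 4 genes of lowest p per list. Most of the marker genes so named are given here only through counts and list means. Pgr, Esr1, Myh11 and Krt8 were read to check the tissue. Other genes named with values (Cd3e, Cd3g, Cd4, Cd8a, Cst3, Plat, Plau, Serpinb1b, Serpinb1c, Slpi, Spink5, Spink6, Spink11, Spint1, Tfpi, Tfpi2, Timp2, Timp4) were chosen after their values were seen. Other scalings, filters, weights, a replicate block and leaving out each array were tried.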

Additional observations from a re-analysis of the deposited data

Results flagged for a closer look

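Among 152 groups of 4 uteri (76 named genes, controls and deleted uteri apart), 7 held 1 uterus far from the other 3 by Dixon's criterion, a number that chance alone gives at about 1 in 20 groups. Among the inhibitors this was Timp3 in control replicate 1, at 11.53 with the other controls at 11.39 to 11.41. Among the protease genes, Tmprss11d in Foxa2-deleted replicate 3 lay at 10.15 with the others at 7.96 to 8.28. Mmp7 in the same uterus lay at 9.67 with the others at 8.05 to 8.32. The thrombin receptor gene F2r in Foxa2-deleted replicate 2 lay at 10.82, near the controls, with the others at 9.40 to 9.60. Among the cell type markers, the gland gene Cxcl15 lay at 6.25 in Foxa2-deleted replicate 3 with the others at 5.96 to 5.97. In control replicate 4, Hoxa11 lay at 10.66 with the others at 10.57 to 10.58, and Hpx at 7.98 with the others at 7.79 to 7.82.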

How the results depend on the processing

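With each array left out in turn, the genes called ranged from 556 to 3059, the inhibitors called higher from 1 to 10 and those called lower from 0 to 7; with control replicate 2 left out none was lower by limma, and 6 were at an unadjusted p under 0.05. With the replicate number as a block, 1062 genes (5.33%) were called, and 4 higher and 2 lower inhibitors (6.32%). No sign was seen that the numbers pair the samples: deviations of same-numbered uteri correlated at -0.05 to 0.06, and 0 of 4 controls and 1 of 4 deleted uteri correlated best with their own number. Deviations from the means of groups of 4 cannot exclude that same-numbered animals shared a litter or handling. Leaving out the dimmest 50% of genes left 19 inhibitors, with 2 higher and 3 lower (26.3%, against 15.5% of the genes kept). Leaving out the dimmest 25% left 34, of which 9 passed (26.5%, against 14.5%). The difference of Serpinc1 turned to -0.0133 under cyclic loess and to -0.0158 without Foxa2-deleted replicate 1, with up to 0.0375 when another array was left out; the cause was not tested. Across all named genes and settings, 1037 values kept direction and side of the threshold, 180 lost the call, 15 gained it and 2 reversed. The scalings moved the median of all genes by less than 0.1. How far the dim inhibitors lie above background is unknown, which limits what their differences can show.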

Other observations

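Protease inhibitor genes that the symbol rule did not take include relatives of the same families, such as murinoglobulins, stefins and Eppin. A list of 28 genes measured holds such relatives, but also some, such as Crim1, that are not established protease inhibitors. Of the 28, 5 rose, 4 fell and 19 did not pass (32.1% called, against 11.1% of all genes). The list was chosen with earlier results of these data known, so its share called is no test. Mug1, a murinoglobulin related to A2m, lay at 7.18, 7.12, 7.15 and 7.19 in controls and at 7.93, 7.66, 8.68 and 7.97 in deleted uteri, and rose by 0.90 (SE 0.18, adjusted p = 0.0212, limma). Cd109, a membrane-bound relative of A2m, lay at 9.23, 9.28, 9.20 and 9.42 in controls and at 8.34, 8.91, 8.03 and 8.61 in deleted uteri, and fell by 0.81 (SE 0.16, adjusted p = 0.0208). Crim1 fell by 0.37 (SE 0.06, adjusted p = 0.0123) and Csta1, a stefin, by 0.30 (SE 0.06, adjusted p = 0.0169). Csta1 was dim, at 4.02 to 4.19 in controls and 3.73 to 3.91 in deleted uteri, and whether it lies above background is unknown. Mug1 lost its call without any 1 control (adjusted p up to 0.0673), Cd109 without deleted uterus 1 or control replicate 2, 3 or 4 (up to 0.0692), and Csta1 without control replicate 2, 3 or 4 (up to 0.0580). Cstb, Kng1, Spock3 and Papln made up the other rises and Eppin the other fall.

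Some inhibitor copies are too alike for their own probe set. On 2 probe sets shared by Serpina1a to Serpina1e, the antitrypsin genes, the mean log2 intensity was 7.80 in controls and 8.06 in deleted uteri (difference 0.25, SE 0.12, adjusted p = 0.215), and 10.95 and 11.25 (difference 0.30, SE 0.13, adjusted p = 0.181), in a limma fit over all probe sets. On 3 probe sets shared by Serpinb9d, Serpinb9e, Serpinb9f and Serpinb9g the differences were 0.08, 0.05 and 0.07 (adjusted p from 0.308 to 0.516).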
